A study of Homo sapiens with 36 samples.

Results

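MYC and the genes around it at 8q24, on human chromosome 8, were followed by name through the table: MYC (Entrez 4609), PVT1 (Entrez 5820), CCAT1 (Entrez 100507056), CASC8 (Entrez 727677), POU5F1B (Entrez 5462) and LRATD2 (Entrez 157638, formerly FAM84B). They are 6 of the 26468 genes in the table, and all 6 were found. MYC, POU5F1B and LRATD2 are protein-coding, and PVT1, CCAT1 and CASC8 are long noncoding RNAs. The genes were measured by RNA sequencing in 6 lines of human colon cancer cells: COLO205, COLO320, HCT15, HCT116, HT29 and SW480. Cells of each line in log-phase growth received 0.5 µM JQ1 or the solvent DMSO for 24 h, with 3 libraries for each of the 12 groups. COLO320 is known for amplified MYC. No other agent or genetic change separates the groups in the labels.

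MYC encodes a transcription factor that drives genes of growth and ribosome production, and in colon cancer it is a well-known target of Wnt signalling. It lies in a gene-poor stretch of chromosome 8 whose enhancers contact the MYC promoter in colon cancer cells, and the noncoding RNAs CCAT1, CASC8 and PVT1 are transcribed from the same stretch. JQ1 displaces the BET bromodomain proteins from acetylated chromatin, and MYC is among the best-known transcripts that BET inhibitors lower. No sequence or coordinate is shown for these genes.

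Values are RPKM, read counts scaled for gene length and library size, as the authors deposited them, and differences are on the log2(RPKM + 0.5) scale. A gene was called at a Benjamini-Hochberg adjusted p under 0.05 in limma, over the 15542 genes that passed a filter on low values. Of the 6 genes, 5 passed that filter, and CASC8 did not. Libraries held 18.8 to 53.1 M reads in genes, and the labels do not say that replicates were separate cultures. The p-values therefore cover the spread among libraries, which may be technical. Fewer cells that express a gene and less of its RNA per cell cannot be told apart in such bulk samples. HEXIM1, an inhibitor of the elongation kinase P-TEFb that BET inhibitors are known to raise, was higher with JQ1 in every line, from 59.4 ± 0.767 against 28.18 ± 0.094 RPKM in HCT15 (JQ1 against DMSO, SD, n = 3 each) to 58.28 ± 1.01 against 8.765 ± 0.392 RPKM in COLO205. Of 10 colon epithelial markers, 4 to 10 reached a mean of 1 RPKM in a group. The lowest count was 4, in COLO320 with JQ1. COLO320 with DMSO had 5, as HCT116 had in both groups. In COLO320, CDX2 was the highest of these markers, and KRT8 and KRT18 also reached 1 RPKM in both groups. CDH1, VIL1 and LGALS4 stayed under 1 RPKM there and CDX1 was at 0. CDX1 was also at 0 in HCT116 and SW480, VIL1 was under 1 RPKM in HCT116, and LGALS4 in HCT116, SW480 and HCT15. Of 5 neuroendocrine markers, 1 to 3 reached 1 RPKM in a group, and of 5 leukocyte markers 1 or 2 did, led by CD68 or, in COLO320, by PTPRC. None of 5 endothelial markers did so in any group.

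With JQ1, MYC, PVT1 and CCAT1 fell in all 6 lines, LRATD2 in 5 and POU5F1B in 2. That makes 25 called lower and 0 called higher of 30 gene and line pairs. CCAT1 passed the filter only through DMSO libraries and POU5F1B only through COLO320. This count, and the calls and ranks of CCAT1 and POU5F1B throughout, are therefore descriptions. Over all genes tested, 35.5% were called lower in HCT116, 40.1% in SW480, 37.3% in HT29, 38.6% in COLO205, 35.4% in HCT15 and 37.2% in COLO320. The mean change over the lines was below 0 and called for all 5 genes, where 48.3% of all genes were called lower and the median gene changed by −0.038. The mean change was −2.00 for CCAT1, −0.83 for MYC, −0.73 for PVT1, −0.44 for LRATD2 and −0.26 for POU5F1B. Of the 15542 genes, 2 had a more negative mean change than CCAT1, and 558, or 3.59%, had a more negative one than MYC.

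**Figure D1:**
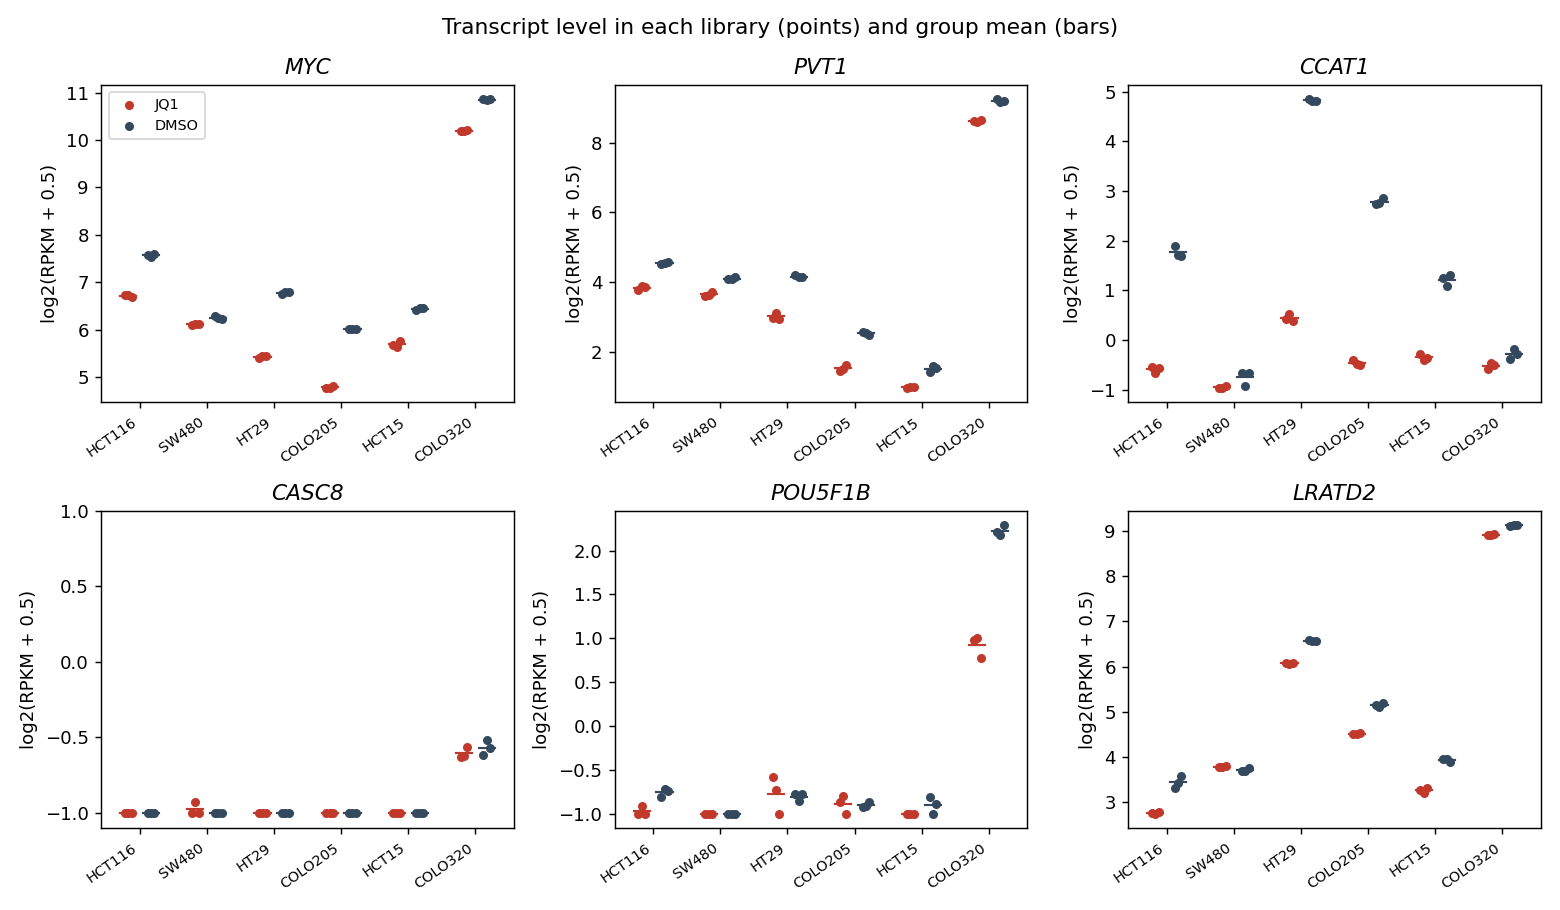
Level of each of the 6 genes in every library, as log2(RPKM + 0.5) on the vertical axis, by cell line. Points are libraries (JQ1 in red on the left of each pair, DMSO in dark blue on the right), and bars are means of 3. COLO320 stands above the other lines for MYC, PVT1, POU5F1B and LRATD2, and HT29 with DMSO is highest for CCAT1.

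MYC was at its highest in COLO320, and with JQ1 its level there was still far above the DMSO level of any other line. COLO320 libraries held 1172, 1172 and 1184 RPKM of MYC with JQ1, against 1856, 1834 and 1856 RPKM with DMSO. The mean with JQ1 was 6.20 times the highest DMSO mean among the other 5 lines and 18.4 times the lowest. MYC took 0.312% of all gene reads in COLO320 with JQ1 and 0.490% with DMSO, and by RPKM it ranked 25th of all genes with JQ1 and 9th with DMSO. The change in COLO320 was −0.65 ± 0.02 (SE, adjusted p = 1.00e-19).

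In HCT116, MYC was at 106.0, 105.5 and 103.0 RPKM with JQ1 and 191.2, 184.0 and 194.1 RPKM with DMSO, a change of −0.85. HCT15 had 50.29, 49.3 and 53.87 RPKM with JQ1, against 85.21, 87.36 and 86.74 RPKM with DMSO, a change of −0.75. In both lines every JQ1 library lay below every DMSO library, and the adjusted p was 2.98e-22 in HCT116 and 2.74e-21 in HCT15.

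The falls of MYC were largest in HT29 and COLO205. HT29 libraries held 41.56, 43.07 and 43.04 RPKM with JQ1 and 107.1, 109.8 and 109.7 RPKM with DMSO. COLO205 libraries held 26.74, 26.81 and 27.72 RPKM with JQ1 and 64.36, 64.1 and 63.68 RPKM with DMSO. The groups stood clear of each other in both lines, with changes of −1.35 in HT29 (adjusted p = 2.44e-27) and −1.23 in COLO205 (adjusted p = 2.30e-26).

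SW480 had the smallest change of MYC. Its libraries held 68.02, 68.82 and 68.87 RPKM with JQ1, against 77.5, 75.63 and 74.41 RPKM with DMSO. The groups did not overlap, and the change of −0.14 ± 0.02 (SE) was called (adjusted p = 3.29e-06). With 12885 reads of MYC over the JQ1 libraries and 14010 over the DMSO libraries, the fall was 1.11-fold after scaling by the authors' divisor for library size, as in every fold of reads given here, with an exact 95% interval of 1.08 to 1.13 that covers counting error only.

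The order of the lines by MYC differed between the treatments. With JQ1 it ran COLO320, HCT116, SW480, HCT15, HT29 and COLO205 from high to low. With DMSO it ran COLO320, HCT116, HT29, HCT15, SW480 and COLO205. No neighbouring lines in either order overlapped, and the closest means were HCT15 and SW480 with DMSO, 1.14-fold apart.

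Set against the mean change of the other 5 lines, the MYC change in SW480 differed by 0.82 (adjusted p = 1.13e-20), towards a smaller fall, where 65.6% of all genes were called in that contrast in either direction. The difference was towards a larger fall in HT29, at −0.62 with 64.5% of genes called, and in COLO205, at −0.48 with 67.5% called. In COLO320 it was 0.21 (adjusted p = 4.38e-08, 64.5% of genes called), but under quantile normalization it was 0.04 (adjusted p = 0.269). The HCT116 change differed from the others by −0.03, which was not called (adjusted p = 0.344, 60.9% of genes called). The difference of 0.09 for HCT15 (60.7% of genes called) was lost under quantile normalization (adjusted p = 0.885) and was −0.011 with total reads as the divisor. Such line differences were the rule in these data, since the F test for unequal JQ1 changes called 93.3% of all genes. MYC was among them (adjusted p = 8.69e-22).

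**Figure D2:**
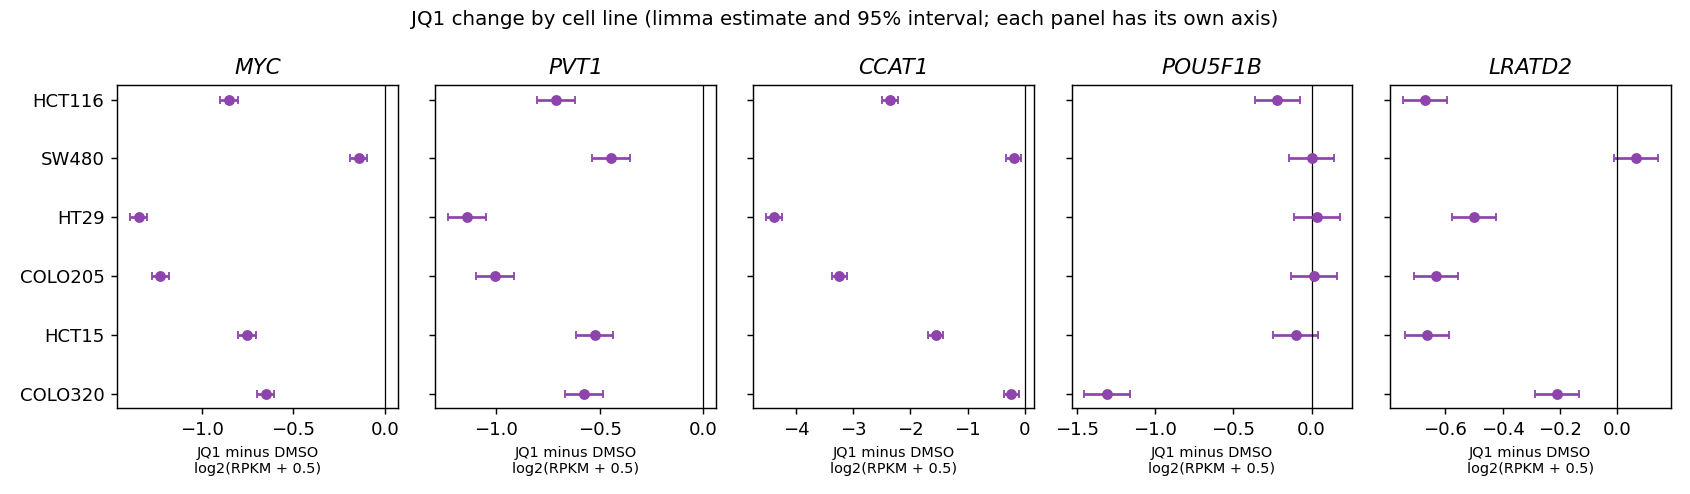
JQ1 minus DMSO difference of log2(RPKM + 0.5) in each line, as the limma estimate (point) with its 95% interval (bar), 1 panel per gene and each with its own horizontal axis. The SW480 interval crosses 0 for LRATD2, and COLO320 has the most negative change of POU5F1B, −1.31.

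PVT1 is the long noncoding RNA gene next to MYC, and it is often gained together with MYC in tumours. It fell in every line, and its mean change was the nearest to that of MYC. COLO320 held 392.7, 386.1 and 404.6 RPKM of PVT1 with JQ1 and 604.4, 573.5 and 586.2 RPKM with DMSO, a change of −0.58 (adjusted p = 2.31e-12). HT29 held 7.383, 8.199 and 7.248 RPKM with JQ1 and 17.9, 17.11 and 17.05 RPKM with DMSO, a change of −1.14 (adjusted p = 2.15e-19). The JQ1 libraries were below all DMSO libraries in both lines.

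SW480 libraries had 11.77, 11.96 and 12.67 RPKM of PVT1 with JQ1, against 16.52, 16.44 and 17.13 RPKM with DMSO. This change of −0.45 was called (adjusted p = 3.96e-10) and rested on 1831 reads with JQ1 and 2477 with DMSO. It was the smallest PVT1 change of the 6, and differed from that of the other 5 lines by 0.35 (adjusted p = 4.34e-07). PVT1 averaged 13.79 ± 0.588 RPKM with JQ1 and 22.86 ± 0.529 RPKM with DMSO in HCT116 (SD, n = 3 each), a change of −0.71. In COLO205 it averaged 2.385 ± 0.167 RPKM with JQ1 and 5.287 ± 0.135 RPKM with DMSO, a change of −1.01. In HCT15, the line with the least PVT1, it averaged 1.48 ± 0.0235 RPKM with JQ1 and 2.351 ± 0.171 RPKM with DMSO, a change of −0.52. JQ1 and DMSO libraries did not overlap in any of these lines. The DMSO levels of HT29 and SW480 overlapped, and all other neighbours in the order of the lines were apart.

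The ratio of PVT1 to MYC RPKM shows how far the pair moved together. It was higher with JQ1 in 5 of 6 lines, though JQ1 and DMSO libraries overlapped in HCT116, COLO205 and HCT15. As the difference of the log2(RPKM + 0.5) changes, the mean was 0.10 ± 0.20 (SD over lines), and an exact two-sided sign-flip test over the lines gave p = 0.312 (adjusted 0.312 over 2 such tests). Without the added constant the mean was 0.04 (exact sign-flip p = 0.656), with COLO205 and HCT15 moving most, at 0.22 and 0.23 with the constant and 0.09 and 0.09 without it. SW480 was the line that went the other way, with ratios of 0.173, 0.174 and 0.184 with JQ1 and 0.213, 0.217 and 0.230 with DMSO. These groups did not overlap. In SW480 the change of PVT1 was thus larger than that of MYC, −0.45 against −0.14, and in the other 5 lines it was the smaller of the pair. The smallest p that this test allows with 6 lines is 0.03125.

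LRATD2 encodes a protein of the LRAT domain family and is the next protein-coding gene on the other side of CCAT1 and POU5F1B from MYC. COLO320 had 477.3, 480.4 and 486.9 RPKM of LRATD2 with JQ1 and 552.5, 557.6 and 559.3 RPKM with DMSO. The groups were apart, and the change of −0.21 was called (adjusted p = 1.58e-05). The change differed from that of the other 5 lines by 0.27, towards a smaller fall (adjusted p = 1.56e-06). HT29, the line with the next-highest level, had 66.73, 66.19 and 67.64 RPKM with JQ1 and 95.75, 93.9 and 94.43 RPKM with DMSO, a change of −0.50. All JQ1 libraries of HT29 lay below its DMSO libraries. In COLO205 it averaged 22.4 ± 0.104 RPKM with JQ1 and 35.03 ± 1.06 RPKM with DMSO (SD, n = 3 each), a change of −0.63. In HCT15 it averaged 9.152 ± 0.374 RPKM with JQ1 and 14.8 ± 0.470 RPKM with DMSO, a change of −0.66. HCT116 had the least LRATD2, 6.313 ± 0.110 RPKM with JQ1 and 10.39 ± 0.988 RPKM with DMSO, and a change of −0.67.

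SW480 was the line without a called fall of LRATD2. Its libraries held 13.23, 13.25 and 13.45 RPKM with JQ1, against 12.48, 12.54 and 13.09 RPKM with DMSO, a difference of 0.07 with a 95% interval of −0.01 to 0.14 (adjusted p = 0.119). Every JQ1 library was above every DMSO library here. The difference was called under quantile normalization (0.10, adjusted p = 0.0169) and when HCT116 DMSO replicate 1 or replicate 3 was left out (adjusted p = 0.0424 and 0.0379), over a range of adjusted p from 0.0169 to 0.270 in all alternatives. The change of LRATD2 in SW480 differed from that in the other 5 lines by 0.60 (adjusted p = 3.90e-13).

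The ratio of LRATD2 to MYC RPKM was higher with JQ1 in all 6 lines, by a mean of 0.39 ± 0.29 as a difference of log2(RPKM + 0.5) changes (SD over lines), but this did not pass the adjusted test. The exact sign-flip test gave p = 0.03125, the smallest it can give with 6 lines, and 0.0625 after adjustment over 2 tests. The ratio of LRATD2 to MYC was 1.61, 1.54 and 1.57 with JQ1 and 0.894, 0.855 and 0.861 with DMSO in HT29. HT29 with JQ1 was the group in which LRATD2 stood above MYC per kilobase. In COLO320 the mean ratio was 0.410 ± 0.00211 with JQ1 and 0.301 ± 0.00326 with DMSO. The ratio was closest between treatments in HCT15, 0.179 ± 0.00222 with JQ1 and 0.171 ± 0.00635 with DMSO.

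**Figure D3:**
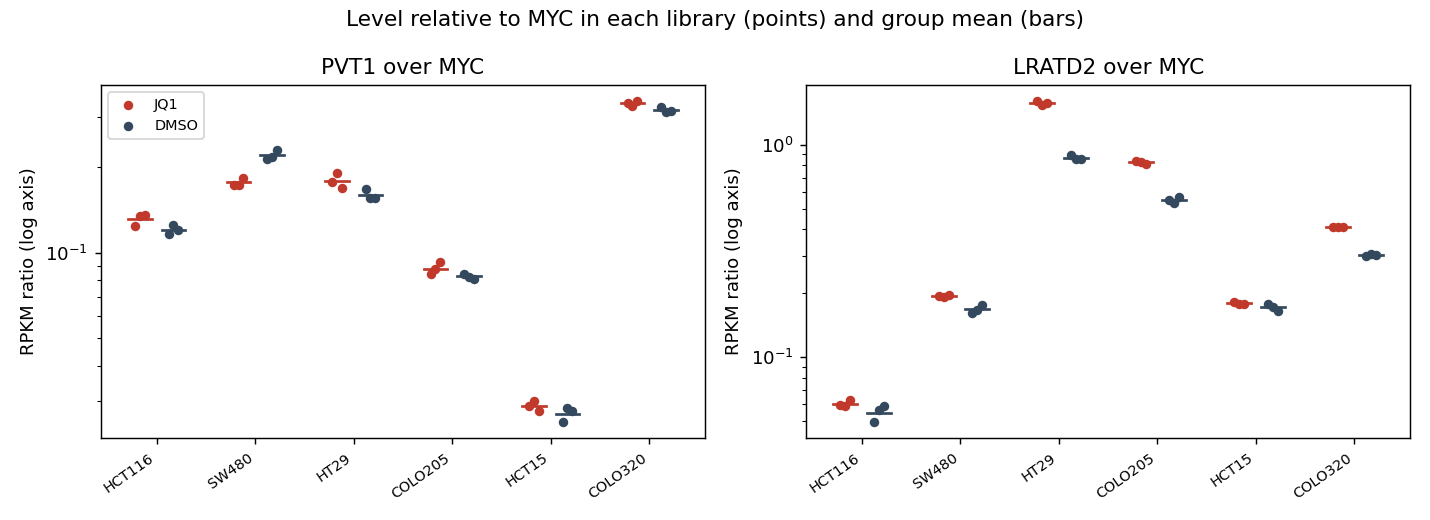
RPKM of PVT1 (left) and LRATD2 (right) divided by that of MYC in the same library, on a log axis, by cell line. Points are libraries and bars are means of 3, with JQ1 in red on the left of each pair and DMSO in dark blue on the right. The PVT1 ratio is lower with JQ1 in SW480, 0.177 against 0.220, and the LRATD2 ratio is higher with JQ1 in all 6 lines.

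CCAT1 is a long noncoding RNA named for its high level in colon cancer and transcribed from an enhancer region upstream of MYC. It spanned a wide range between lines and fell further than the other genes where it was abundant. HT29 libraries held 0.839, 0.933 and 0.802 RPKM of CCAT1 with JQ1 and 28.24, 27.72 and 27.68 RPKM with DMSO. In reads this was 214 over the JQ1 libraries against 5065 over the DMSO libraries, 32.6-fold lower with an exact 95% interval of 28.4 to 37.5. On the log2 scale with 0.5 added the change was −4.39 (adjusted p = 9.57e-29), and 4 of the 15542 genes had a more negative change in HT29. CCAT1 passed the filter only through DMSO libraries, which favours a fall. This p and rank, and the calls of CCAT1 in other lines, are therefore descriptions.

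COLO205 had 0.262, 0.217 and 0.203 RPKM of CCAT1 with JQ1 and 6.183, 6.27 and 6.725 RPKM with DMSO. Its 45 reads with JQ1 and 1162 with DMSO gave a 28.2-fold fall (21.0 to 38.9). HCT116 had 0.189, 0.134 and 0.177 RPKM with JQ1 and 3.22, 2.796 and 2.738 RPKM with DMSO. There, 30 reads with JQ1 and 610 with DMSO gave a 17.3-fold fall (12.01 to 25.9). The intervals of HT29 and COLO205 overlapped, so the ratio of reads did not set these lines apart although DMSO levels differed 4.36-fold.

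HCT15 had 0.322, 0.263 and 0.283 RPKM of CCAT1 with JQ1, against 1.884, 1.638 and 1.977 RPKM with DMSO. Its 64 reads with JQ1 and 408 with DMSO gave a 6.27-fold fall (4.80 to 8.29), and its interval lay below those of HT29, COLO205 and HCT116. In all 4 lines named so far, JQ1 and DMSO libraries stood apart. With JQ1 the means of COLO205, COLO320 and HCT116 lay between 0.166 and 0.227 RPKM, and neighbours among them overlapped.

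COLO320 and SW480 both had little CCAT1. COLO320 had 0.173, 0.227 and 0.205 RPKM of CCAT1 with JQ1 and 0.274, 0.387 and 0.323 RPKM with DMSO. Its 42 reads with JQ1 and 73 with DMSO gave a 1.64-fold fall (1.11 to 2.46). The groups did not overlap, and the log2 change of −0.24 was called (adjusted p = 0.00244) but not under quantile normalization (adjusted p = 0.665). SW480 had 0.0150, 0.0136 and 0.0297 RPKM with JQ1 and 0.129, 0.0301 and 0.133 RPKM with DMSO. Its 4 reads with JQ1 and 20 with DMSO gave a 5.09-fold fall with an interval of 1.70 to 20.5, which includes the HCT15 value and the HCT116 value.

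For SW480 the log2 change of CCAT1 was −0.20 (adjusted p = 0.00933). The call was lost when SW480 DMSO replicate 1 was left out (adjusted p = 0.0585), and likewise for DMSO replicate 3 (adjusted p = 0.0644). Quantile normalization ended it too (adjusted p = 0.393), as did a fit of SW480 by itself (adjusted p = 0.0540). The 44 alternatives ranged in adjusted p from 0.00016 to 0.393. The added 0.5 exceeds the whole level in these 2 lines, so the contrasts of CCAT1 between lines, 2.16 for SW480 and 2.11 for COLO320 against the other 5, are bounded by that constant.

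POU5F1B is a retrogene related to the pluripotency factor POU5F1, and CASC8 is a noncoding RNA gene whose span contains it. Reads of both came mostly from COLO320 libraries. COLO320 libraries held 1.48, 1.508 and 1.207 RPKM of POU5F1B with JQ1, from 179 reads, and 4.134, 4.015 and 4.393 RPKM with DMSO, from 569 reads. The groups were far apart, and the change of −1.31 ± 0.07 (SE, adjusted p = 1.07e-15) stood beside one of −0.65 for MYC in the same libraries. In reads the fall was 3.00-fold (2.53 to 3.57). In COLO320, 380 of the 15542 genes, or 2.44%, had a more negative change.

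In the other 5 lines POU5F1B had 0 to 18 reads in a group, and no group mean reached 0.1 RPKM. SW480 had 0 reads in both groups, which allows up to 0.0236 RPKM with JQ1 and 0.0240 RPKM with DMSO (3 reads over the group, counting error only). HCT116 had 1 read with JQ1 and 12 with DMSO, a ratio of 0.0978 with an exact interval of 0.00229 to 0.661. Its log2 change of −0.22 was called (adjusted p = 0.00803) but not under quantile normalization (adjusted p = 0.157), over a range of 0.00127 to 0.157 in the alternatives. HCT15 had 0 reads with JQ1 and 5 with DMSO, and COLO205 had 5 with JQ1 and 4 with DMSO. HT29 had 14, 4 and 0 reads in its JQ1 libraries and 3, 2 and 3 in its DMSO libraries. None of these 3 lines was called, with HT29 at an adjusted p of 0.701, or of 0.0377 without HT29 JQ1 replicate 3. The mean change of −0.26 combined −1.31 in COLO320 with −0.22 to 0.03 elsewhere, and it was not called when lines served as replicates (adjusted p = 0.261).

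Reads of POU5F1B could in part be assigned to POU5F1 or its other copies, depending on how the authors treated reads with several matches, which the sources used here do not give. In COLO320, POU5F1 itself had 13 reads with JQ1 and 3 with DMSO, where POU5F1B had 179 with JQ1 and 569 with DMSO. POU5F1P3 and POU5F1P4 had 1 or 2 reads in each of these groups.

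CASC8 had reads in COLO320 and 1 read in SW480 with JQ1, and was at 0 in every other library. COLO320 held 0.148, 0.150 and 0.177 RPKM with JQ1 and 0.152, 0.198 and 0.174 RPKM with DMSO. The groups overlapped, and the ratio of the 18 reads with JQ1 to the 21 with DMSO, 0.908 at equal depth, has an exact interval of 0.456 to 1.79. A fall as large as that of MYC in COLO320, a ratio of 0.636, lies inside this interval and was not detectable at this depth, whereas the POU5F1B ratio of 0.333 lies below it. CASC8 did not pass the filter on low values, and without the filter its change in COLO320 was −0.03 (adjusted p = 0.116). In the other 5 lines a count of 0 allowed at most 0.0222 to 0.0312 RPKM in a group.

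COLO320 with DMSO stood above every other line for PVT1, LRATD2 and MYC, and below the mean of the other lines for CCAT1. The difference from that mean was 5.83 for PVT1, 4.56 for LRATD2 and 4.24 for MYC, with adjusted p from 1.62e-43 to 1.73e-39. Of all genes, 43.3% were called higher in COLO320 and 46.7% lower, and 35 genes had a larger difference than PVT1. Over the highest of the other lines, COLO320 had 25.7 times as much PVT1, 9.74 times as much MYC and 5.88 times as much LRATD2. POU5F1B, at 44.7 times, passed the filter only through COLO320, so its excess there follows from the filter and is given as a level alone. CCAT1 passed the filter only through DMSO libraries of other lines. Its difference of −2.25 is therefore given as a description, and COLO320 had 0.0118 of the HT29 level. The F test for differences among the 6 lines with DMSO called MYC, PVT1 and LRATD2, and 98.8% of all genes.

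The genes next to MYC in the RefSeq order were examined 15 to either side. Of these 30 rows, 10 tested ones are outside the named genes, and 16 never reached a group mean of 1 RPKM. PCAT1, a noncoding RNA gene between LRATD2 and CCAT1, was also high in COLO320, at 2.553 ± 0.150 RPKM with JQ1 and 4.577 ± 0.526 RPKM with DMSO (SD, n = 3 each), and its DMSO level was 33.7 times that of the next line. It too passed the filter only through COLO320. Its change with JQ1 in COLO320 was −0.73 (adjusted p = 1.07e-10). MIR1204 lies inside PVT1 and stood 7.39 higher in COLO320 than the mean of the other lines. Reads of MIR1204 cannot be separated from those of PVT1 here, since the labels do not say whether strand was kept.

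Farther out the COLO320 excess was not seen. TRIB1, the tested gene before LRATD2, was lower in COLO320 with DMSO than the mean of the other 5 lines, at −1.91. NSMCE2 at −0.52 and WASHC5 at −0.56 were also lower. After PVT1, CYRIB was lower at −0.76 and ASAP1 at −0.65. Only WASHC5 of these was below every other line, at 21.46 against at least 22.4 RPKM. TRIB1, NSMCE2, CYRIB and ASAP1 were above the lowest of the other lines. SQLE, MTSS1 and ZNF572 at the far end were higher by 0.80, 0.96 and 0.12, yet none of these 3 exceeded the highest of the other lines. Of the genes that could have passed the filter through other lines, LRATD2, MYC, PVT1 and MIR1204 were above every other line in COLO320. CCAT1, which lies between LRATD2 and MYC, was not, but it passed the filter only through other lines. Of the 10 other neighbours, 5 were higher and 5 lower in COLO320 than the mean of the other lines, with a median of −0.20. Over all genes the median was −0.04, with 43.3% higher and 46.7% lower. PCAT1 and MIR1204 are among the 5 higher. With JQ1, 7 of the 10 were called lower and 1 higher in the mean over lines, with a median of −0.17. Of all genes, 48.3% were called lower and 40.2% higher. PCAT1, which passed the filter only through COLO320, and MIR1204, with reads not separable from those of PVT1, are among the 7. The count is therefore a description.

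**Figure D4:**
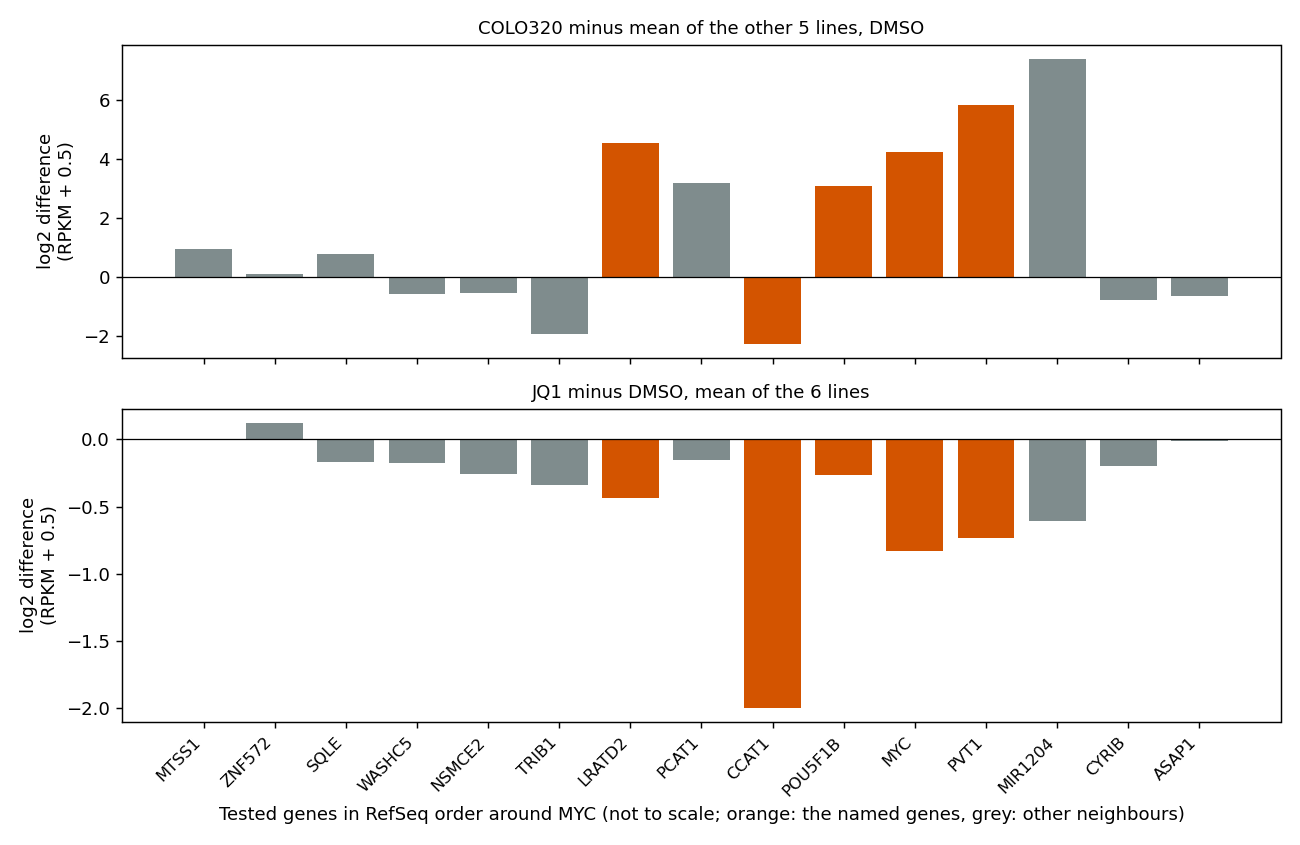
The 15 tested genes around MYC in RefSeq order, with equal spacing and not to scale. The upper panel gives COLO320 minus the mean of the other lines with DMSO, and the lower panel the mean JQ1 minus DMSO difference. Both are of log2(RPKM + 0.5), as limma estimates without their intervals. Orange bars are the named genes and grey bars other neighbours. The bars from LRATD2 to MIR1204 are above 0 in the upper panel except CCAT1 at −2.25. POU5F1B and PCAT1 passed the filter only through COLO320, and CCAT1 only through DMSO libraries of other lines. In the lower panel CCAT1 at −2.00 is the lowest bar.

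Across the 6 lines, the JQ1 changes of MYC and PVT1 had a Pearson r of 0.93 and those of MYC and CCAT1 of 0.92, and those of MYC and LRATD2 of 0.74. For MYC and POU5F1B it was −0.23. These are descriptions over 6 points whose changes come from the same libraries, and the CCAT1 changes are bounded by the added constant. Outside COLO320, POU5F1B had 0 to 18 reads in a group, so that constant bounds its changes there as well. The DMSO levels of MYC and PVT1 had an r of 0.93 over 6 lines and 0.58 over the 5 lines without COLO320. For MYC and LRATD2 it was 0.77 with COLO320 and −0.22 without it.

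Over the 12 group means, the genes whose pattern was most like that of MYC were TOP1MT (Pearson r 0.972), LANCL3 (0.971) and a gene without a symbol (0.969). TOP1MT, a mitochondrial topoisomerase gene, is also on chromosome 8. Over the 10 groups without COLO320 they were RUVBL2 (0.983), an ATPase of chromatin remodelling complexes, UTP4 (0.977), a ribosome biogenesis factor, and OTUD6B (0.976). Over all 12 group means again, they were for PVT1 HOXC13 (0.986), PPP3R1 (0.970) and FIRRE (0.969), for LRATD2 FANCL (0.965), ZC3H18 (0.961) and LINC00665 (0.955), and for CCAT1 SNUPN (0.910), TNNI2 (0.907) and COA4 (0.893). For POU5F1B the only one with a symbol was the collagen gene COL3A1 (0.996), and this likeness rests on COLO320, since r was 0.534 without it. COL3A1 led the fibroblast markers in COLO320, whose summed level was 2.93 to 3.23 RPKM with JQ1 and 15.5 to 15.8 RPKM with DMSO, with 1 and 3 of 5 markers at 1 RPKM and DCN at 0 in DMSO. In the other lines that sum was 0.181 to 3.38 RPKM. Its part in the POU5F1B result was not tested.

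Of 25 well-known MYC targets, 24 fell and 1 rose in the mean over lines, with a median of −0.51, where 48.3% of all genes fell and 40.2% rose. The largest falls were those of SLC19A1, the reduced folate carrier, at −1.54 and NME1, a nucleoside diphosphate kinase, at −0.97. The gene that rose was ODC1, the first enzyme of polyamine synthesis, at 0.04, which under quantile normalization had the other sign. In HT29 and in COLO205, the lines with the largest MYC falls, 24 fell and 0 rose, with medians of −0.90 and −0.75. In SW480, 17 fell and 4 rose with a median of −0.19. The counts were 19 and 3 in HCT116, 20 and 3 in HCT15 and 20 and 1 in COLO320, with medians of −0.30, −0.46 and −0.28. Of all genes, 37.3% were called lower and 36.6% higher in HT29, and 38.6% and 34.2% in COLO205. In SW480 the shares were 40.1% and 33.9%, and in HCT116 35.5% and 32.4%. HCT15 had 35.4% and 34.8%, and COLO320 37.2% and 31.0%. Median changes over all genes were between −0.02 and 0 in each line. In COLO320 with DMSO, MYC was 9.74 times the next line. There, 17 of the 25 targets were called higher than the mean of the other 5 lines and 7 lower, with a median of 0.24. Over all genes, 43.3% were called higher and 46.7% lower.

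Of 16 Wnt target and TCF genes, 7 fell and 8 rose in the mean over lines, with a median of 0.03, or 0.00 with total reads as the divisor. The largest falls were those of ASCL2, a stem cell transcription factor of the intestine, at −0.94 and TCF7 at −0.51. AXIN2, a feedback inhibitor of the Wnt pathway, rose by 0.49. The others that rose were SOX9, CTNNB1, EPHB2, RNF43, ZNRF3, LGR5 and TCF7L2, by 0.05 to 0.33. By line, 6 fell and 6 rose in HCT116, 11 and 2 in SW480, 4 and 8 in HT29, 3 and 12 in COLO205, 8 and 6 in HCT15 and 9 and 7 in COLO320. The shares of all genes called higher were 32.4% in HCT116, 33.9% in SW480, 36.6% in HT29, 34.2% in COLO205, 34.8% in HCT15 and 31.0% in COLO320. In the same order of lines, the shares called lower were 35.5%, 40.1%, 37.3%, 38.6%, 35.4% and 37.2%. SW480, with the smallest MYC change, thus had the most negative median of this list, −0.33, and COLO205 the highest, 0.51.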

How the data were processed

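Per the labels' protocols, RNA was treated with DNase on the column and made into TruSeq RNA libraries. Whether strand was kept is not stated in those sources. The authors deposited RPKM per gene. The tools named are GSNAP, DESeq and limma, per the submitters' processing notes, and the build is NCBIM37, a mouse assembly name, although the gene identifiers are human. Coordinates are therefore left out. Symbols and gene order came from the RefSeq table of GRCh38.p14, which named 24519 of 26468 genes. All 36 columns matched a sample, with 0 left over.

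Whole reads were recovered from the steps of the RPKM values, within 0.01 read for 23499 genes above 0 (100% of them). Libraries held 18.8 to 53.1 M reads, and the authors' divisor was 19.1 to 52.4 M. Chi-square per gene between replicates was 1.22 to 3.20 over 36 pairs, so no replicate was a copy of another's values. These values do not show whether replicates were technical. A 0 allows up to 3 reads at 95% confidence. Ratios of reads pool 3 libraries a group, are scaled by the authors' divisor and carry exact binomial intervals, which cover counting error only.

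limma 3.58.1 in R 4.3.3 was fitted to log2(RPKM + 0.5) over 12 group means and 36 libraries, for the 15542 genes that reached 1 RPKM in 3 or more libraries, with a mean-variance trend, and tested on simulated data. Residual degrees of freedom were 24, and prior ones 2.97. The pseudocount understates the change of low genes. Ratios to MYC were tested by exact sign-flips over 6 lines, for genes with a group mean of at least 1 RPKM in all 12 groups. Likeness was ranked by Pearson r, neighbours were named where a group mean reached 1 RPKM, and listed genes where they had the 2 largest falls or rose. Other values were computed in Python 3.11.15 with scipy 1.17.1, pandas 2.3.3 and numpy 2.4.6. The members, lists and tests were chosen with earlier results of these data known. Alternatives are given at the end.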

Additional observations from a re-analysis of the deposited data

Results flagged for a closer look

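The size of the JQ1 change differed between the 6 lines for each of the 5 tested genes, by limma's F test of the line and treatment interaction. The adjusted p was 6.09e-25 for CCAT1, whose changes ran from −4.39 in HT29 to −0.20 in SW480. That span is bounded by the added constant of 0.5. CCAT1 passed the filter only through DMSO libraries, so this adjusted p is a description. For MYC the adjusted p was 8.69e-22, with changes from −1.35 in HT29 to −0.14 in SW480. For PVT1 it was 3.00e-11, with changes from −1.14 in HT29 to −0.45 in SW480. LRATD2 had an adjusted p of 1.58e-13, with −0.67 in HCT116 and 0.07 in SW480. POU5F1B had an adjusted p of 1.23e-12, with −1.31 in COLO320 and at most 18 reads in any group of the other lines. It passed the filter only through COLO320, so this value is a description, and with voom on the reads the adjusted p was 0.122. The same F test called 93.3% of all genes.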

How the results depend on the processing

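Over 84 results, 3641 alternative values were computed: pseudocounts of 0.1 and 1, no filter on low values, quantile normalization, total reads as the divisor, voom on the recovered reads, a replicate block, each line fitted alone, the cell line as the unit, and each library left out in turn. Of these, 3603 stayed on their side of the threshold, with the same direction where called, or within 1.5 times for a count. The mean change of POU5F1B was not called with the cell line as the unit (−0.26, adjusted p = 0.261), and its F statistic for unequal changes was 1.92 with voom (adjusted p = 0.122). The gene and line pairs called lower, 25, numbered 22 under quantile normalization, 24 with each line fitted alone and 24 to 25 with single libraries left out. Those called higher numbered 1 under quantile normalization, and 0 to 1 with single libraries left out. The contrast of the MYC change in HCT15 with the other 5 lines was −0.011 with total reads as the divisor, and that of POU5F1B was −0.81 with voom (adjusted p = 0.462), where the main values were 0.09 and 0.19. The cause was not tested. Neither scaling moved the median gene by over 0.1. The HT29 contrast of LRATD2, −0.08 and not called, was called without HCT116 DMSO replicate 3 (adjusted p = 0.0130). It was also called with total reads as the divisor (−0.12, adjusted p = 0.0141) and with voom (−0.07, adjusted p = 0.0288). The adjusted p ranged from 0.0130 to 0.203 over the alternatives.

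Same-numbered replicates correlated at −0.148 to 0.0492 over 18 pairs, and 6 pairs were best with their own number, so the numbers do not pair the samples. With a replicate block the mean change of MYC stayed at −0.83, and 13748 genes were called for the mean change, against 13745 without it. CCAT1 in SW480, POU5F1B outside COLO320 and CASC8 are limited by depth.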

Other observations

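The paralogues of MYC and LRATD2 had patterns of their own. MYCN, the MYC relative known from neuroblastoma, had 7.927, 7.562 and 7.821 RPKM with JQ1 and 15.1, 14.73 and 15.95 RPKM with DMSO in COLO205, a change of −0.93 (adjusted p = 9.39e-18 in limma). In COLO320 it had 1.91, 1.722 and 2.003 RPKM with JQ1 and 5.404, 5.746 and 5.838 RPKM with DMSO, a change of −1.38, and in the other 4 lines no group mean reached 0.1 RPKM. MYCL moved the other way in COLO205, with 14.78, 14.64 and 14.3 RPKM with JQ1 and 6.08, 5.659 and 5.804 RPKM with DMSO, a change of 1.25 (adjusted p = 6.57e-17). It also rose in SW480 by 0.61 and in HCT15 by 0.80, and it fell in HCT116, at −0.20 (adjusted p = 0.00555), and in COLO320, at −0.32 (adjusted p = 3.26e-05). In the main fit 1 of the 3 tested copies and paralogues was called lower in HCT116 and 2 in COLO320. With quantile normalization these counts were 0 and 1, so the fall of MYCL in HCT116 lost its call. In COLO320 the fall of MYCN or that of MYCL lost its call. The median of the 3 genes there was −0.095, against −0.32 in the main fit. Of all genes, 35.5% were called lower in HCT116 and 37.2% in COLO320 in the main fit. MYCL in COLO320 was at 0.256 RPKM with JQ1 and 0.446 RPKM with DMSO, under the added 0.5. LRATD1, on another chromosome than LRATD2, was likewise high in COLO320, at 59.85 ± 1.66 RPKM with JQ1 and 41.63 ± 0.531 RPKM with DMSO (SD, n = 3 each), against at most 0.500 RPKM with JQ1 and 0.452 RPKM with DMSO in any other line. It rose by 0.52 in COLO320 (adjusted p = 1.33e-09), where LRATD2 fell by 0.21 on the same log2 scale.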
